A study of Mus musculus with 7 samples.

Results

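The serpins are a family of proteins that share one fold, most of which inhibit proteases. A serpin exposes a reactive centre loop as bait, the target protease cuts it, and the inhibitor then snaps shut on the enzyme in a complex that does not come apart. The family is divided into clades by letter: clade A holds secreted antitrypsin and antichymotrypsin relatives, clade B holds mostly intracellular inhibitors that protect cells from granule and lysosomal proteases, and clades C to I hold inhibitors of clotting, plasminogen activation and complement, together with members that do not inhibit proteases. In a tumor with T cells and NK cells, Serpinb9 is of interest because it inhibits granzyme B, the granule protease with which these lymphocytes kill.

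The genes described here are all rows of the expression table whose name begins with Serpin and whose value was 10 or more in at least 3 of the 7 libraries. Of 55 serpin rows among 38026 rows, 31 met this rule and 24 did not. The 7 RNA-seq libraries, labelled polyA RNA, were made from subcutaneous PDA (pancreatic ductal adenocarcinoma) tumors in C57BL/6 mice, taken 2 weeks after inoculation of 1242 KPC cells, a mouse pancreatic cancer cell line. The 4 control libraries (sgScramble replicates 1 to 4) came from tumors of cells with a scrambled guide, and the 3 sgKrt19 libraries (replicates 5, 6 and 8) from tumors labelled as Krt19 knockout, both without treatment. The labels give no age of the mice, name no guide or clone for the sequenced tumors, and do not say whether each library came from a separate mouse, so p-values measure the spread between these samples.

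Values are read counts divided by a size factor per library (normalized read counts), and are listed throughout in the order of sgScramble replicates 1 to 4 and sgKrt19 replicates 5, 6 and 8. The libraries held 40781199 to 44972100 reads, and 3 reads corresponded to a value of 2.74 to 3.47. Krt19, the edited gene, had 25574, 21179, 27618 and 17841 in sgScramble and 1606, 1960.3 and 2470.0 in sgKrt19 (log2 fold change of -3.52, SE 0.18, adjusted p = 1.74e-05). Muscle markers were higher in all sgKrt19 libraries (7 of 7 genes, summed values of 50.4 to 2028 against 17728 to 24944), and of the hepatocyte markers 4 of 5 were lower (2997 to 4922 against 1157 to 1525). Ckm, Myh1, Myh4, Tnnt3 and Actn2 reached a value of 10 in 1 sgScramble library each, and Alb and Ahsg in no sgKrt19 library. For these genes the filter on values favoured the direction seen, so the counts describe the lists only. In the epithelial list, which checks the labelled cancer cells, 5 of 7 genes were higher in sgKrt19. Its summed values were 122240 to 162055 in sgScramble and 257212 to 271657 in sgKrt19. Epcam (376 to 1588 against 322 to 1247) and Cldn4 (17.6 to 48.4 against 3.15 to 26.6) had overlapping groups and did not pass. In whole tumors, fewer cells of a type and less RNA per cell cannot be told apart.

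Serpin genes moved in both directions. Of the 31 genes, 10 were higher and 10 lower in sgKrt19 tumors at an adjusted p under 0.05 (limma, Benjamini-Hochberg over 21322 genes), and 11 did not pass. Among all genes tested 34.0% passed, 17.9% as higher and 16.0% as lower. A log2 fold change of at least 1 was seen for 7 of the higher genes (6.13% of all genes) and 9 of the lower ones (6.49%; both directions together 12.6%). With edgeR 33.7% and with DESeq2 37.4% of all genes passed, and 18 and 21 serpins. The groups did not overlap for 18 serpins, beside 41.1% of all genes, with sgKrt19 above for 8 (21.7% of all genes) and below for 10 (19.3%). The median log2 fold change of the 31 was -0.30, with a range of -4.27 to 2.14, beside 0.007 over all genes, and this median turned to 0.15 with a filter of 50 and was -0.02 without sgKrt19 replicate 6. These counts describe the list only, because 5 of the genes reached a value of 10 in no sgKrt19 library, so that a lower level was the direction the rule favoured for them. Serpina7 and Serpinf2 met the rule on the sgScramble libraries alone but not on the sgKrt19 libraries alone. Serpina3c met it only with libraries of both groups (2 of sgScramble and 1 of sgKrt19). Clade A (13 genes) had 5 higher and 6 lower, and clade B (9 genes) had 3 higher and 2 lower. Among the clades with 1 gene each, Serpind1 and Serping1 were higher, Serpini1 was lower, and Serpinc1 and Serpinh1 did not pass.

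**Figure D1:**
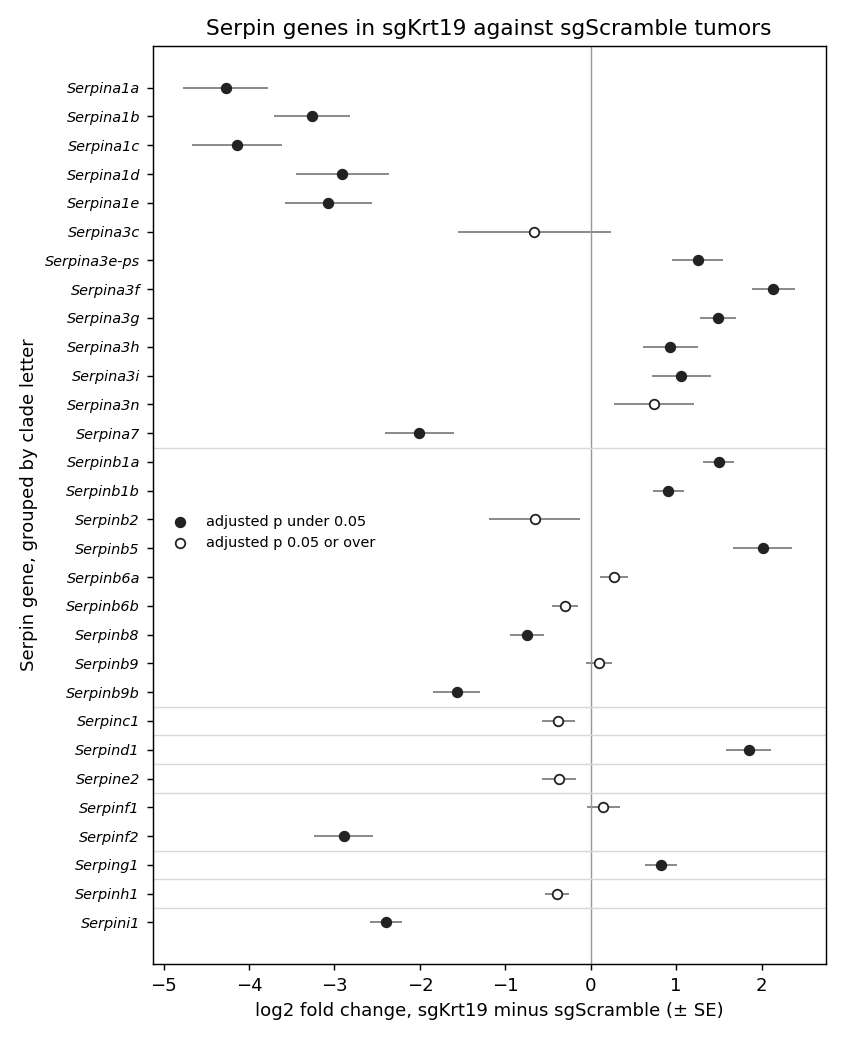
Log2 fold change (sgKrt19 minus sgScramble, on log2 of value + 1) with its SE for 30 serpin genes, ordered by clade letter, filled where the adjusted p was under 0.05 and open otherwise. The 5 Serpina1 genes lie between -4.27 and -2.91 and Serpina3f, at 2.14, is the highest point.

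Compared per kilobase of annotated exon, the 5 serpins with the highest means were the same genes in both groups, though the library ranges of the fifth and the sixth overlapped in each. In sgScramble tumors the order was Serpinb6b (3414 normalized reads per kb), Serpinh1 (3340.4), Serpinb6a (1952), Serpinb9 (1801) and Serpinb1a (1232). Neighbours in this order had overlapping library ranges except Serpinh1 (2899.9 to 3867) and Serpinb6a (1669 to 2264). In sgKrt19 tumors Serpinb1a had the highest mean at 3442, ahead of Serpinb6b at 2783 and Serpinh1 at 2553. The library ranges of these neighbours overlapped in sgKrt19, from 2858 to 3943 for Serpinb1a and from 2421 to 3352 for Serpinb6b.

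The intracellular granzyme inhibitors were set beside the granzymes they block. Serpinb9 (chr13:33003250-33017957, mm10, plus strand), the granzyme B inhibitor of mice, had normalized read counts of 6487, 6963, 4758 and 6961 in sgScramble and 7545, 5941 and 6593 in sgKrt19. The groups overlapped (6292 ± 1047 (SD, n = 4) against 6693 ± 807 (SD, n = 3), log2 fold change of 0.10, SE 0.15, adjusted p = 0.638). The sign of this small difference turned to -0.03 without sgScramble replicate 3, the library with the lowest value, and to -0.12 when libraries were scaled by size only. Its target Gzmb had 459.8, 486, 252 and 463 in sgScramble and 1810.3, 1663 and 1445 in sgKrt19 (log2 fold change of 2.02, SE 0.22, adjusted p = 0.000183), so every sgKrt19 library lay above every sgScramble library. The difference log2(Serpinb9 + 1) minus log2(Gzmb + 1) averaged 3.95 ± 0.19 (SD, n = 4) in control tumors and 2.03 ± 0.18 (SD, n = 3) in sgKrt19 tumors. The exact permutation test over the 35 ways to assign 7 libraries to the groups gave a two-sided p of 0.0571. That is the smallest value possible with p as 2 times the smaller tail, and it was 0.171 adjusted over 3 such pairs. The smallest value lies above the threshold, so this test could not pass whatever the values, and no call was made. The group difference of -1.92 restates the Gzmb change of 2.02 beside the Serpinb9 change of 0.10. The same permutation test on absolute differences gave 0.0286, and the definition of p was settled after that value was seen. The pair was chosen with earlier results of these data known, so neither p is evidence beyond the values of each gene.

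Across granzymes and perforin, 9 of 11 genes were higher, none was lower, and the median log2 fold change was 1.68. Among the higher ones, Gzmk met the filter through the sgKrt19 libraries, where it is high. Gzma had 125, 71.1, 42.01 and 68.6 in sgScramble and 965, 703 and 824 in sgKrt19 (log2 fold change of 3.51, SE 0.30, adjusted p = 5.88e-05). Prf1, the perforin through which granzymes enter a target cell, had 114, 179, 143 and 193 in sgScramble and 543, 617 and 709 in sgKrt19 (log2 fold change of 2.00, SE 0.20, adjusted p = 0.000109). The 2 genes of this list that did not pass were Gzmc and Gzmm. T cell markers were higher for 8 of 9 genes, all but Cd4 (summed values of 851 to 1471 in sgScramble and 3981 to 7051 in sgKrt19). NK cell markers were higher for 4 of 6 (212 to 328 and 742 to 785). Ncr1 (adjusted p = 0.197) and Klrb1c (adjusted p = 0.0525) had overlapping groups and did not pass. Klra8 passed in 4 of the 7 fits that leave out a library.

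**Figure D2:**
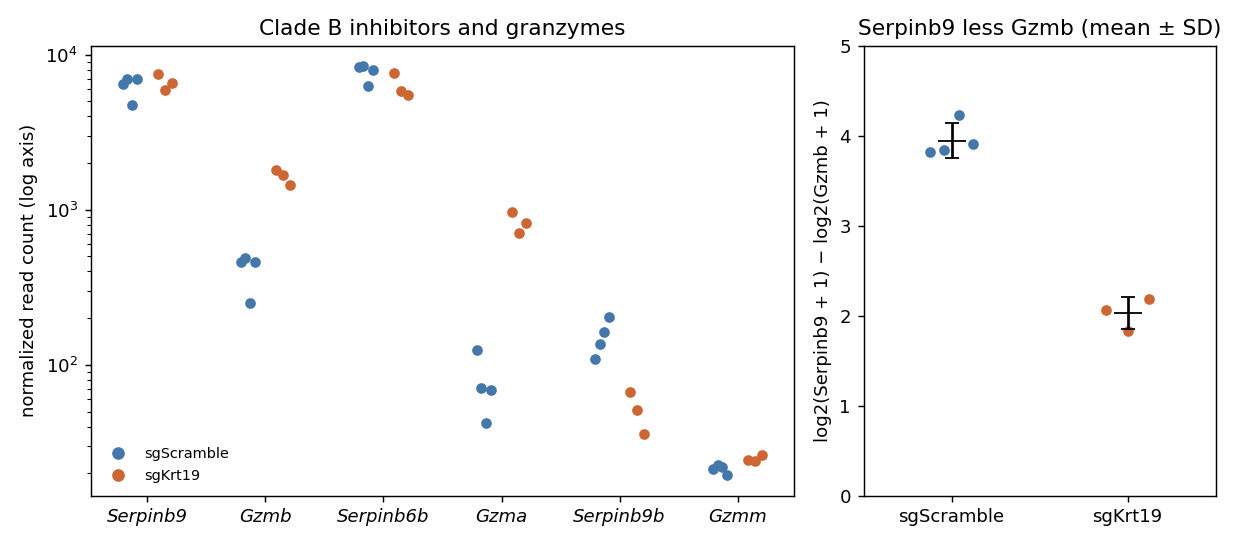
Left, normalized read count per library (log axis) of 3 clade B inhibitors, each beside a granzyme, with sgScramble in blue and sgKrt19 in orange. Right, log2(Serpinb9 + 1) minus log2(Gzmb + 1) per library with mean ± SD, at 3.95 in sgScramble and 2.03 in sgKrt19. Gzmb and Gzma separate the groups while Serpinb9 and Serpinb6b overlap.

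Serpinb6b (chr13:32965209-32979067), an inhibitor of granzyme A in mice, had 8250.0, 8388, 6310.1 and 7943 in sgScramble and 7581, 5825 and 5477 in sgKrt19 (log2 fold change of -0.30, SE 0.15, adjusted p = 0.139). Its groups overlapped through sgKrt19 replicate 5, and without that library its adjusted p was 0.0495. Serpinb6a (chr13:33917918-34002794), an inhibitor of cathepsin G and related proteases, had 12247, 9957, 10998 and 9026 in sgScramble and 15979, 11469.9 and 11054 in sgKrt19 (log2 fold change of 0.27, SE 0.16, adjusted p = 0.209). Here 21.9% of the 76-base stretches of its exons also occurred in other genes, among them genes on the opposite strand, and the sources used here do not state whether counting used strand.

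Serpinb9b (chr13:33027416-33041884), a close relative of Serpinb9 known as an inhibitor of granzyme M, was lower in sgKrt19 tumors. It had 109, 137, 163 and 204 in sgScramble and 67.05, 51.01 and 35.7 in sgKrt19. The highest sgKrt19 value was under the lowest control value (log2 fold change of -1.57, SE 0.27, adjusted p = 0.00213). Gzmm itself had 21.4, 22.7, 21.9 and 19.5 in sgScramble and 24.3, 24.004 and 26.3 in sgKrt19, and although its groups did not overlap it did not pass the test (log2 fold change of 0.21, SE 0.24, adjusted p = 0.525). The gap between Serpinb9 and Serpinb9b on chromosome 13 is 9.46 kb. The coding stretch of the reactive centre loop, the bait that sets which protease is caught, is printed to show where the pair differ. It was read from the annotated transcripts (GENCODE M21), with the shared start and end in lower case and the part between them in capitals, 52 of 84 bases in Serpinb9 and 61 of 93 bases in Serpinb9b.
Serpinb9: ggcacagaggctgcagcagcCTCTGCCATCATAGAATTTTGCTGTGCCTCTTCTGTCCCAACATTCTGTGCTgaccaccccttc
Serpinb9b: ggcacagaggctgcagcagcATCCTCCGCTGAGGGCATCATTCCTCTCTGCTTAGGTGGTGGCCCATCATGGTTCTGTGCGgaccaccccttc
No 76-base stretch of the Serpinb9 exons occurred in another gene, and 3.35% of those of Serpinb9b did, with a predicted gene on the opposite strand.

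Serpinb1a, an inhibitor of the neutrophil granule proteases elastase, cathepsin G and proteinase 3, was the abundant clade B gene that rose. It had 2945, 2099, 3587 and 2717 in sgScramble and 8120.0, 6583 and 9079.8 in sgKrt19, with no overlap (log2 fold change of 1.50, SE 0.18, adjusted p = 0.000291). Its neighbour Serpinb1b, at a much lower level, had 50.2, 52.4, 46.6 and 48.2 in sgScramble and 101, 93.02 and 87.2 in sgKrt19 (log2 fold change of 0.91, SE 0.19, adjusted p = 0.00502). The spread within each group was small for Serpinb1b, with an SD of 2.497 in sgScramble and 6.72 in sgKrt19. Among the proteases of neutrophils, mast cells and basophils, 1 of 7 tested genes was higher, 1 was lower, and the median log2 fold change was 0.67. The higher one was Ctsg (cathepsin G), with 2.79, 7.904, 10.05 and 7.42 in sgScramble and 15.03, 35.01 and 72.5 in sgKrt19. Ctsg met the filter through the sgKrt19 libraries, where it is high. The lower one was Mcpt8, a basophil protease, with 245, 138, 217 and 76.05 in sgScramble and 90.2, 55.01 and 40.96 in sgKrt19. The groups of Mcpt8 overlapped, and it passed in 3 of the 7 fits that leave out a library. Elane, the elastase gene, stayed at or below 1.16 in every library. Neutrophil markers were higher for 5 of 6 genes (378 to 573 against 1087 to 1187), with Ly6g below the filter and Retnlg over it only through sgKrt19. The part of these markers in the Serpinb1a difference was not tested.

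Serpinb5 (maspin), a clade B protein of epithelial cells that does not inhibit proteases, rose. Its values were 458, 222, 528 and 173 in sgScramble and 1247, 1384 and 1146 in sgKrt19 (log2 fold change of 2.01, SE 0.34, adjusted p = 0.00195). The sgScramble libraries themselves spanned from 173 to 528, all under the lowest sgKrt19 value of 1146. Of the skin keratinocyte list, Ivl was higher and Lor, which met the filter through sgScramble, lower among 4 tested genes, and 3 were below the filter. Of these, Krt1 had 1 read or none in any library, Dsg3 had 2.79, 0.988, 4.57 and 0 in sgScramble and 11.6, 14.002 and 1.05 in sgKrt19, and Krt5 had 1.86, 0, 1.83 and 0 in sgScramble and 1.16, 3.001 and 14.7 in sgKrt19. Serpinb8, an inhibitor of the convertase furin, fell from 104, 89.9, 132 and 109 to 67.05, 56.01 and 69.3 (log2 fold change of -0.75, SE 0.20, adjusted p = 0.0172), and without sgKrt19 replicate 6 its adjusted p was 0.0538. Serpinb2 (PAI-2), an inhibitor of urokinase, had 85.5, 42.5, 97.7 and 74.2 in sgScramble and 42.8, 18.003 and 117 in sgKrt19 (log2 fold change of -0.66, SE 0.53, adjusted p = 0.352). That gene rests on 1 library, since without sgKrt19 replicate 8 the log2 fold change was -1.33 and the adjusted p 0.0453.

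**Figure D3:**
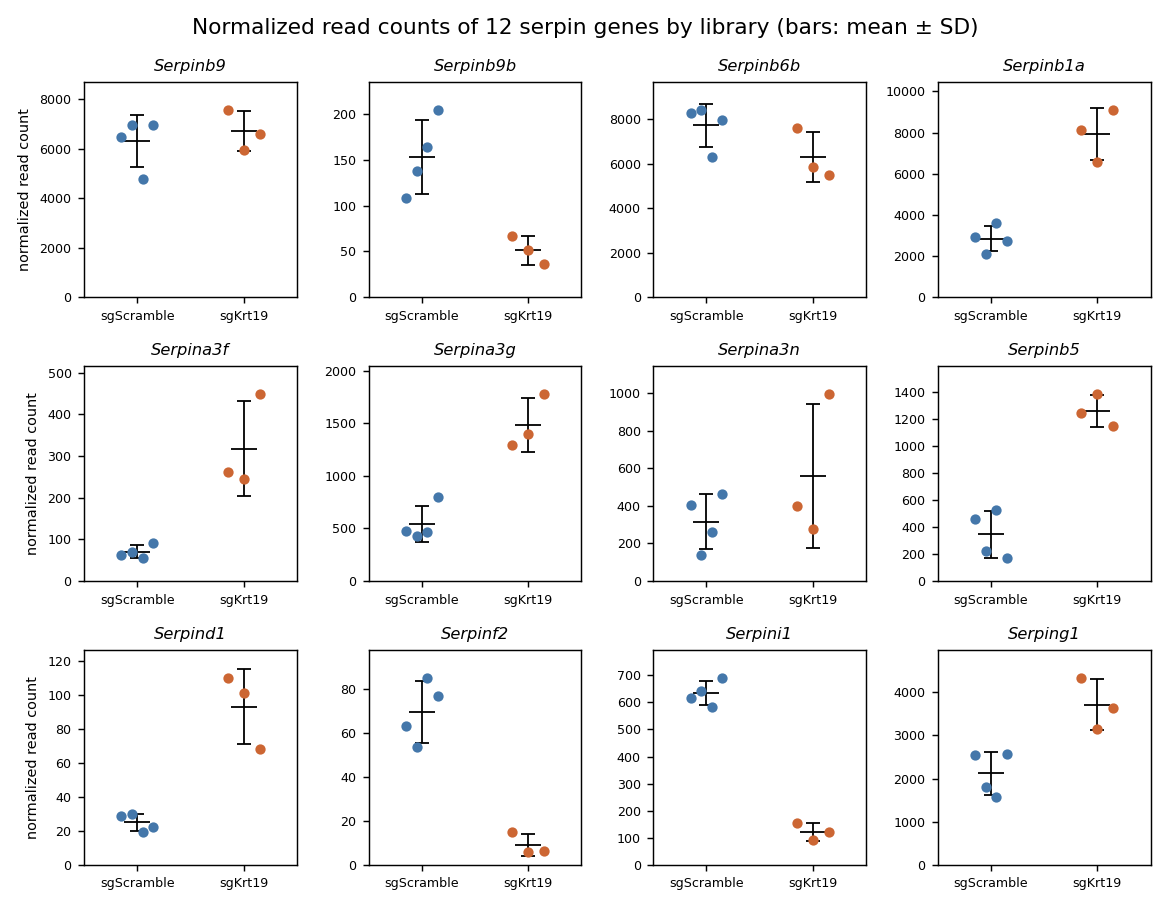
Normalized read count of 12 serpin genes in each library, on axes that start at 0, with mean ± SD for the 4 sgScramble and 3 sgKrt19 libraries. Serpinb1a, Serpinb5, Serpina3f, Serpina3g, Serpind1 and Serping1 lie higher in all sgKrt19 libraries, and Serpinb9b, Serpinf2 and Serpini1 lower.

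Clade A held 2 neighbouring runs of genes on chromosome 12. Together they spanned 686 kb (chr12:103728156-104414329, mm10). The 5 antitrypsin genes Serpina1a to Serpina1e were all lower, beside 16.0% of all genes tested. Past a gap of 187 kb lay the 7 antichymotrypsin relatives that begin with Serpina3 and met the rule. Of these, 5 were higher, beside 17.9% of all genes, and none was lower. Further Serpina3 rows were below the rule. The antitrypsin genes met the rule on values through the sgScramble libraries alone, so their shared direction is a description and no test of the run. Mice carry several copies of what in humans are single genes for antitrypsin and antichymotrypsin.

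The antitrypsins are elastase and trypsin inhibitors made mainly by the liver. Serpina1a had 32.5, 19.8, 61.2 and 39.9 in sgScramble and 1.16, 0 and 2.1003 in sgKrt19. Serpina1b had 47.4, 17.8, 73.1 and 51.9 in sgScramble and 3.47, 3.001 and 4.201 in sgKrt19. Serpina1c had 31.6, 14.8, 53.9 and 42.7 in sgScramble and 1.16, 0 and 2.1003 in sgKrt19. For all 5 genes the sgKrt19 values stand for 0 to 4 reads per library, and replicate 2 was the lowest sgScramble library. Serpina1d had 16.7, 6.92, 33.8 and 35.2 in sgScramble and 2.31, 2.0003 and 1.05 in sgKrt19. Serpina1e had 13.9, 7.904, 20.1 and 20.4 in sgScramble and 1.16, 2.0003 and 0 in sgKrt19. The groups did not overlap for any of the 5. The log2 fold changes of -4.27, -3.26, -4.15, -2.91 and -3.07 for Serpina1a to Serpina1e (SE of 0.45 to 0.55, adjusted p of 0.000245 to 0.00325) depend on the pseudocount at such counts, and they come from genes that met the rule only through the group where they are high. Summed over the 5 genes, 691 reads in sgScramble stood against 24 in sgKrt19, a ratio of 19.03 per unit of size factor (95% exact interval 12.7 to 29.9, counting error only). The interval pools the libraries of each group and leaves out the spread between them.

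The 5 antitrypsin genes could not be cleanly separated from each other. Some of the 76-base stretches in their exons also occur in another gene, on either strand. The share was 73.3% for Serpina1c, 49.0% for Serpina1a, 36.6% for Serpina1d, 19.3% for Serpina1e and 18.6% for Serpina1b. The genes that shared most were others of the set, so the split of reads among them is uncertain. Of the exon bases of Serpina1c, 31.5% are overlapped by B430119L08Rik on the opposite strand, and its shared stretches can include some of these. The loop that meets the protease is printed because it sets which protease each copy can catch, as 81 coding bases with the 18 positions that vary among the 5 in capitals.
Serpina1a: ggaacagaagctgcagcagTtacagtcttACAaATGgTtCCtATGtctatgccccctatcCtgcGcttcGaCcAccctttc
Serpina1b: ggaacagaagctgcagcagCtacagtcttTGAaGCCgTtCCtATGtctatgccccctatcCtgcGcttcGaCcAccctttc
Serpina1c: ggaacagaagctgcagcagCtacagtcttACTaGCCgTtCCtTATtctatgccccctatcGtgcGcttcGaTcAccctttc
Serpina1d: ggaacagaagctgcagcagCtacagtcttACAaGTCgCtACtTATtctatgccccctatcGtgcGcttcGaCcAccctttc
Serpina1e: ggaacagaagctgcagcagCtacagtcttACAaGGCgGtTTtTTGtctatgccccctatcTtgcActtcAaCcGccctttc
Hepatocyte markers lay in the same direction as these genes, and 3 of the 5 listed are named here, chosen after their values were seen. Alb (albumin) had 44.6, 35.6, 134 and 58.4 in sgScramble and 3.47, 5.001 and 4.201 in sgKrt19 (log2 fold change of -3.54, SE 0.43, adjusted p = 0.000304), Ahsg (fetuin-A) was at 0 in all sgKrt19 libraries after 14.6 to 24.2 in sgScramble, and Apoa1 did not pass. Alb and Ahsg met the filter through the sgScramble libraries alone, so a lower level was the direction it favoured. The part of the hepatocyte markers in the antitrypsin difference was not tested.

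The antichymotrypsin relatives on the other side of the gap were higher or did not pass. Serpina3f, an intracellular member that lymphoid and myeloid cells express, had 63.2, 69.2, 55.7 and 91.8 in sgScramble and 261, 244 and 448 in sgKrt19, a separation without overlap (log2 fold change of 2.14, SE 0.25, adjusted p = 0.000279). Serpina3g (Spi2A), which inhibits lysosomal cysteine cathepsins released into the cytosol and protects activated T cells, had 476, 428, 464 and 799 in sgScramble and 1290.1, 1395 and 1778 in sgKrt19 (log2 fold change of 1.49, SE 0.21, adjusted p = 0.000736). All sgKrt19 values of Serpina3g lay above the sgScramble values, of which replicate 4 was the highest. The pseudogene Serpina3e-ps had 12.1, 8.89, 11.9 and 17.6 in sgScramble and 32.4, 29.005 and 30.5 in sgKrt19 (log2 fold change of 1.25, SE 0.30, adjusted p = 0.0107).

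The calls of Serpina3i and of the transcribed pseudogene Serpina3h were weak. Serpina3i had 17.6, 25.7, 25.6 and 54.7 in sgScramble and 58.96, 54.01 and 68.3 in sgKrt19. Serpina3h had 17.6, 23.7, 27.4 and 44.5 in sgScramble and 43.9, 50.01 and 64.1 in sgKrt19. In both genes sgScramble replicate 4 reached just above the lowest sgKrt19 library, and the other control libraries lay below. Their log2 fold changes were 1.06 (SE 0.35, adjusted p = 0.0396) and 0.93 (SE 0.32, adjusted p = 0.0466). With edgeR the adjusted p was 0.0574 for Serpina3i and 0.0552 for Serpina3h, and each passed in 1 of the 7 fits that leave out a library, the one without sgScramble replicate 4. Serpina3n, a secreted inhibitor of granzyme B and other serine proteases, had 405, 138, 260.3 and 461 in sgScramble and 399, 278 and 995 in sgKrt19 (log2 fold change of 0.74, SE 0.47, adjusted p = 0.239). Its mean was raised by sgKrt19 replicate 8, without which the log2 fold change was 0.22. Serpina3c had 27.9, 2.96, 2.74 and 13.9 in sgScramble and 1.16, 3.001 and 19.95 in sgKrt19 and did not pass (adjusted p = 0.588). Between 0.281% and 10.8% of the 76-base stretches of these 7 genes occur elsewhere, highest in Serpina3e-ps and Serpina3h. For Serpina3e-ps, Serpina3h and Serpina3i the genes that shared most were other Serpina3 genes, Serpina3f and Serpina3g among them. Serpina3g had the highest means of the run (542 in sgScramble and 1488 in sgKrt19). The split of reads among these genes is therefore uncertain, and their calls are not separate observations.

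**Figure D4:**
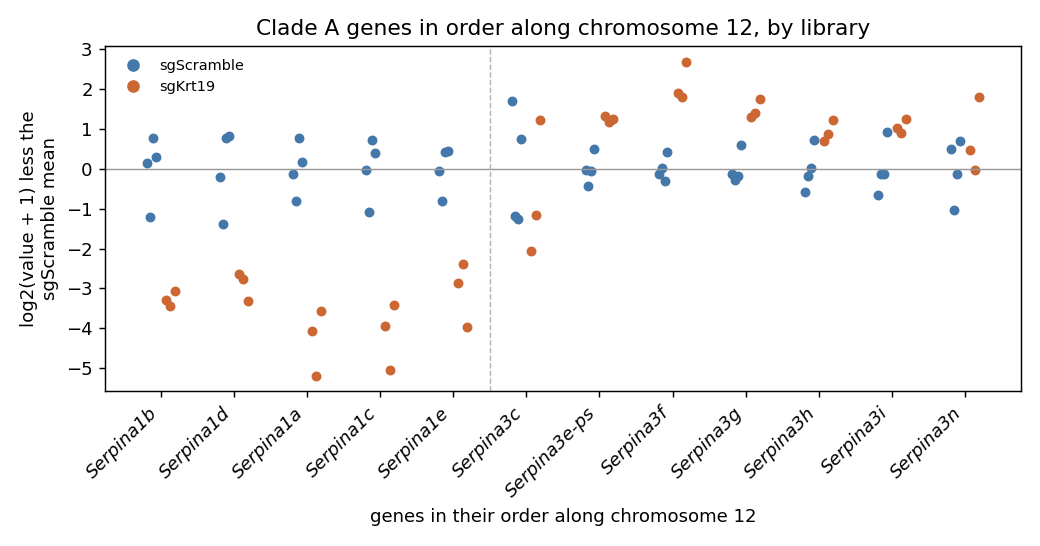
Each library's log2(value + 1) less the sgScramble mean for 12 clade A genes in their order along chromosome 12, with a dashed line between the Serpina1 and the Serpina3 run. All sgKrt19 points of the Serpina1 genes lie below the sgScramble points, and those of Serpina3e-ps, Serpina3f and Serpina3g lie above.

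The promoters of 26 of the 31 genes were searched for a STAT site of the form TTCNNNGAA and for an interferon-response element (GAAA, any 2 bases, then GAAA), on both strands, from 250 bases before to 50 after the RefSeq start (GRCm38.p6). These motifs were picked after the values of the genes were known. A STAT site was found in 5 genes (Serpina3f, Serpina3g, Serpina3i, Serpinb2 and Serpinb6a) and an interferon-response element in 2 (Serpinb9 and Serpinb6a), beside 8.30% and 3.44% of 32851 promoters of the same length. The serpin counts are per gene, over 30 promoters of the 26 genes, whereas the percentages are per promoter. Of the 5 Serpina3 genes with a promoter entry, 3 had the STAT site, and Serpina3n had neither motif. In these 3 related genes the bases right after the site are the same, so the sites should not be read as separate occurrences. The 250 bases before the start are printed for the 2 Serpina3 genes that rose most and for Serpinb9, with the motif in capitals. It begins 121 bases before the start in Serpina3f, 33 in Serpina3g and 46 in Serpinb9, where it reads on the other strand. A match of letters is a description and says nothing of a bound factor.
Serpina3f, chr12:104214294-104214543, plus strand: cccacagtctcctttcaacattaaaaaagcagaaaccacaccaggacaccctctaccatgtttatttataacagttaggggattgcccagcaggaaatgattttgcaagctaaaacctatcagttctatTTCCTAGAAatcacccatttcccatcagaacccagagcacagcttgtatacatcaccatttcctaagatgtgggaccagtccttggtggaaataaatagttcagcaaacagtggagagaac
Serpina3g, chr12:104235897-104236146, plus strand: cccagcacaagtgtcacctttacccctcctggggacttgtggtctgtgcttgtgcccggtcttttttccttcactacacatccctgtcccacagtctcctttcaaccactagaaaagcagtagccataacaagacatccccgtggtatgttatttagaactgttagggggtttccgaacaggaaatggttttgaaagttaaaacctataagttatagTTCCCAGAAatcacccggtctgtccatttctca
Serpinb9, chr13:33004291-33004540, plus strand: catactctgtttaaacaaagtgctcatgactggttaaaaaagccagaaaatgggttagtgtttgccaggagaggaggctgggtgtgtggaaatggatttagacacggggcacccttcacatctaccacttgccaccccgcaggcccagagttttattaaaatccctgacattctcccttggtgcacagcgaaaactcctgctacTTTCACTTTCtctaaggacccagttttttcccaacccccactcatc

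A general list of lysosomal cysteine proteases, cathepsins and Lgmn (legumain), was measured beside Serpina3g, and not all of them are known targets of it. Of 10 genes, 4 were higher (Ctsb, Ctsh, Ctss and Ctsw), 1 was lower (Ctsf) and 5 did not pass, with a median log2 fold change of 0.20. Ctsh, the lysosomal aminopeptidase, had 5979, 4016, 6607 and 5219.6 in sgScramble and 12497, 10769.8 and 11173 in sgKrt19 (log2 fold change of 1.09, SE 0.16, adjusted p = 0.000947). Ctsf (cathepsin F) had 300.0, 261, 391 and 395 in sgScramble and 166, 110.0 and 124 in sgKrt19 (log2 fold change of -1.33, SE 0.21, adjusted p = 0.00115). Serpina7, the thyroxine-binding globulin and the remaining clade A gene, had 80.8, 124, 57.5 and 83.5 in sgScramble and 26.6, 31.01 and 9.45 in sgKrt19 (log2 fold change of -2.01, SE 0.40, adjusted p = 0.00455) with no overlap. It lies on chromosome X, away from the other clade A genes.

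Inhibitors of thrombin and of plasminogen activation did not move as one. Serpind1 (heparin cofactor II), a thrombin inhibitor, rose from 28.8, 29.6, 19.2 and 22.3 to 109.8, 101 and 68.3 (log2 fold change of 1.85, SE 0.26, adjusted p = 0.00074). Serpinc1 (antithrombin), the main thrombin inhibitor of plasma, had 258, 422, 293 and 372 in sgScramble and 210.4, 280.0 and 276 in sgKrt19 with overlapping groups (log2 fold change of -0.38, SE 0.20, adjusted p = 0.154). Of its 76-base stretches, 32.5% lie in Zbtb37 on the opposite strand, so its level is uncertain. Of 10 tested genes for clotting factors and their receptors, 2 were higher (Procr and F2rl1) and 3 lower (F5, F8 and Proc), and F2, the thrombin gene, was below the filter. F8 passed in 1 of the 7 fits that leave out a library. Procr, the protein C receptor, had 729, 643, 606 and 658 in sgScramble and 1354, 1208 and 1005 in sgKrt19 (log2 fold change of 0.84, SE 0.13, adjusted p = 0.00115). Proc, the anticoagulant protein C, had 238, 265, 255 and 240.2 in sgScramble and 89.01, 52.01 and 55.7 in sgKrt19 (log2 fold change of -1.95, SE 0.21, adjusted p = 0.000157).

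Serpini1 (neuroserpin), an inhibitor of tissue plasminogen activator, had the smallest adjusted p of all serpins. It had 618, 640.3, 585 and 690.0 in sgScramble and 156, 90.02 and 121 in sgKrt19. Its level in sgKrt19 was 19.3% of that in sgScramble (633 ± 44.3 (SD, n = 4) against 122 ± 33.1 (SD, n = 3), log2 fold change of -2.40, SE 0.18, adjusted p = 3.58e-05). Serpinf2 (alpha-2-antiplasmin), the plasmin inhibitor, had 63.2, 53.4, 84.9 and 76.98 in sgScramble and 15.03, 6.001 and 6.301 in sgKrt19 (log2 fold change of -2.89, SE 0.34, adjusted p = 0.000278). Serpine2 (protease nexin 1), a thrombin and urokinase inhibitor, had 3504, 2899, 5059 and 3844 in sgScramble and 3642, 2889 and 2322 in sgKrt19 (log2 fold change of -0.37, SE 0.20, adjusted p = 0.169).

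The activators themselves did not pass the test. Plau (urokinase) had 1411, 1215, 1575 and 1612 in sgScramble and 1793, 1584 and 1045 in sgKrt19 (log2 fold change of -0.01, SE 0.18, adjusted p = 0.979), and Plat (tissue plasminogen activator) had 8420.0, 7596, 7512 and 9515 in sgScramble and 10516, 8325 and 6902 in sgKrt19 (log2 fold change of 0.04, SE 0.15, adjusted p = 0.858). In the plasminogen activation list 4 of 9 tested genes were higher, 2 were lower, and the median log2 fold change was 0.04. The higher ones were Plaur (the urokinase receptor), Vtn (vitronectin), S100a10 and Anxa2, the last a pair that binds plasminogen at the cell surface. The lower ones were Lrp1 and Tnfrsf23. Tnfrsf23 is a TNF receptor family gene and not a plasminogen gene, but it is part of these counts and of the median. S100a10 had overlapping groups and passed in 3 of the 7 fits that leave out a library. Vtn had 27.9, 16.8, 26.5 and 19.5 in sgScramble and 70.5, 40.01 and 68.3 in sgKrt19 (log2 fold change of 1.34, SE 0.30, adjusted p = 0.00769). Lrp1, an endocytic receptor that clears protease-inhibitor complexes, had 8159.9, 12777, 10588 and 16405 in sgScramble and 8032, 7392 and 7273 in sgKrt19 (log2 fold change of -0.62, SE 0.20, adjusted p = 0.0391) and passed in 2 of the 7 fits that leave out a library.

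Serping1 (C1 inhibitor), which blocks the first proteases of the complement cascade, had 2542, 1812, 1583 and 2562 in sgScramble and 4332, 3154 and 3647 in sgKrt19, with no overlap (log2 fold change of 0.82, SE 0.19, adjusted p = 0.00844). Among its target proteases and their kin, 1 of 6 was higher and 2 were lower, with a median log2 fold change of -0.13. Of the lower ones, Masp2 had overlapping groups and passed in 2 of the 7 fits that leave out a library. C1s1 had 1869.8, 1892, 1733 and 2268 in sgScramble and 2838, 2498 and 2697 in sgKrt19 (log2 fold change of 0.47, SE 0.12, adjusted p = 0.0127). Masp1, a protease of the lectin pathway that C1 inhibitor also blocks, fell from 419, 716, 366 and 545 to 68.2, 42.01 and 19.95 (log2 fold change of -3.64, SE 0.37, adjusted p = 0.00013).

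Serpinh1 (HSP47), the collagen chaperone of the endoplasmic reticulum and no protease inhibitor, had 8113, 7084, 7998 and 9448 in sgScramble and 7455, 5859 and 5394 in sgKrt19. Only sgKrt19 replicate 5 reached into the sgScramble range, and the gene narrowly missed the threshold (log2 fold change of -0.39, SE 0.14, adjusted p = 0.0554). With DESeq2 the adjusted p was 0.0304, and without sgKrt19 replicate 5 it was 0.0218. Its client Col1a1 had 28896, 40126, 43044 and 73468 in sgScramble and 40152, 42146 and 35812 in sgKrt19 (log2 fold change of -0.16, SE 0.27, adjusted p = 0.671). The difference log2(Serpinh1 + 1) minus log2(Col1a1 + 1) was -2.43 ± 0.46 (SD, n = 4) and -2.67 ± 0.22 (SD, n = 3) in the respective groups (exact permutation test, two-sided p = 0.514, adjusted p = 0.686). Of 15 collagen and collagen-modifying genes, 2 were higher (Crtap and Ppib) and 4 lower (Col5a1, P4ha1, Plod2 and Fkbp10), and none of 7 fibroblast markers passed. Col5a1 passed in 1 and P4ha1, whose groups overlapped, in 2 of the 7 fits that leave out a library. Crtap, a subunit of the collagen prolyl hydroxylation complex, had 2285, 2400.0, 2407 and 2291 in sgScramble and 3941, 3363 and 3127 in sgKrt19 (log2 fold change of 0.56, SE 0.11, adjusted p = 0.00351). Fkbp10, a collagen prolyl isomerase that works beside HSP47, had 2892, 3119, 3808 and 3839 in sgScramble and 1754, 1394 and 1382 in sgKrt19 (log2 fold change of -1.17, SE 0.14, adjusted p = 0.000283).

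Serpinf1 (PEDF), a secreted protein that restrains vessel growth, had 2799, 2183, 2760.0 and 3419 in sgScramble and 4098, 2680.4 and 2595 in sgKrt19 (log2 fold change of 0.15, SE 0.19, adjusted p = 0.561), with the sign turned to -0.06 without sgKrt19 replicate 5 and to -0.07 with scaling by library size only. It lies 9.03 kb from Serpinf2 on chromosome 11, where Serpinf2 fell and Serpinf1 did not pass. Protease inhibitors outside the family gave 3 higher (Spint1, Spint2 and Cst3) and 6 lower of 18 tested, with a median log2 fold change of 0.25. Spint1, and Tfpi2 among the lower ones, each passed in 3 of the 7 fits that leave out a library. Spint2, an inhibitor of membrane serine proteases, had 9027, 6851, 10178 and 5864 in sgScramble and 17958, 11742 and 13938 in sgKrt19 (log2 fold change of 0.88, SE 0.21, adjusted p = 0.0101). Pzp, an alpha-2-macroglobulin relative, fell from 1146, 934, 1539.8 and 1309.5 to 18.5, 5.001 and 18.9 (log2 fold change of -6.52, SE 0.38, adjusted p = 1.92e-05).

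Of the 24 serpin rows below the rule, 15 never exceeded a value of 3, about the floor of 3 reads. The highest value among the 24 was 19.95, of Serpina3m in sgKrt19 replicate 8. Serpina9, a serpin of germinal centre B cells, had 1.86, 2.96, 5.48 and 1.85 in sgScramble and 9.25, 11.002 and 14.7 in sgKrt19, and was not tested because only 2 libraries reached 10.

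**Figure D5:**
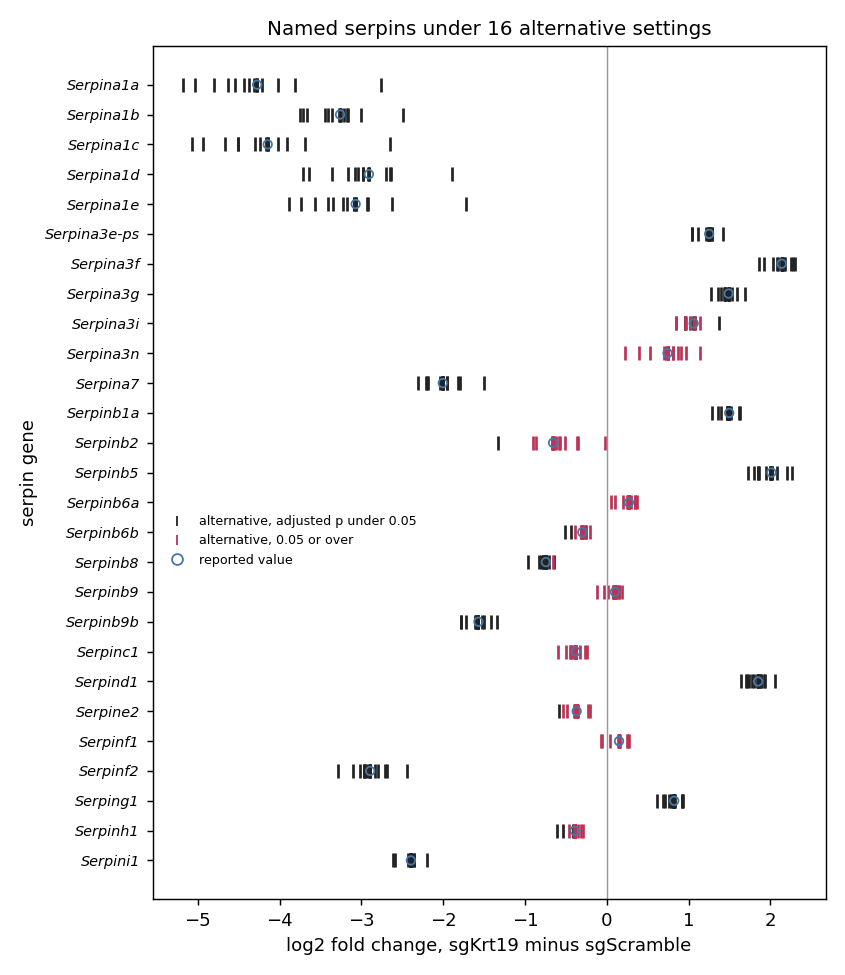
Log2 fold change (sgKrt19 minus sgScramble) of 27 serpin genes under 16 alternative settings (ticks, dark where the adjusted p was under 0.05 and red otherwise) beside the reported value (circle). Of the 18 that passed in the reported fit, all stay on one side of 0, and Serpina3i and Serpinb8 have red ticks.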

How the data were processed

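RNA-seq was run on 7 subcutaneous tumors, 4 sgScramble and 3 sgKrt19, grouped by their titles. Per the labels the RNA was polyA RNA and the build mm10, and the study's methods describe stranded total RNA libraries read in single reads of 76 bases. Which RNA type applies was not settled here. The aligner, counter, annotation and strand setting are not given in the sources used here. The authors deposited one signal value per gene and library, which is a read count divided by a size factor: in every library 100% of values were whole multiples of one step within 0.01 of a read, and those whole reads were recovered. The values of replicates differed beyond counting error, so each library counted once.

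Values were tested on log2(value + 1) with limma 3.58.1 (lmFit, then eBayes with trend, R 4.3.3) over all 21322 genes with a value of 10 or more in at least 3 libraries, two-sided, with Benjamini-Hochberg adjustment and a threshold of 0.05. A fold change on this scale understates the change of low genes. Exact permutation tests over the 35 ways to assign the libraries compared 3 inhibitor-partner differences, of which 1 is not reported here, with p as 2 times the smaller tail. That definition was settled after a first run, which counted absolute differences and gave 0.0286 for Serpinb9 minus Gzmb. Under the definition used, the smallest possible p lies above the threshold, so these permutation tests could give no call. edgeR 4.0.16 and DESeq2 1.42.0 ran on the recovered reads as alternatives, beside other pseudocounts (0.5 and 5), filters (none and 50), scalings (library size only and TMM), limma without trend, and each library left out in turn. The scripts were tested on simulated data.

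The serpin genes, the pathway and marker lists, and the tests were chosen with earlier results of these data known. Values are given per library for serpins past the threshold that changed by 1 or more on the log2 scale, for the highest of each clade and for serpins of known role, and for pathway lists for the gene past the threshold with the largest change in each direction. Coordinates are from GENCODE M21 (GRCm38), in which 97.74% of the row IDs and all 31 serpins were found. Depth was 40781199 to 44972100 reads, and intervals cover counting error only. No protein sequences were used here, and 1 of the 31 serpins is counted in the totals but not reported here. The loop stretches were found by the conserved bases at both ends of the loop, and a set for the Serpina3 genes was not used here.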

Additional observations from a re-analysis of the deposited data

Results flagged for a closer look

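Of 34 serpin and serpin-difference results searched in the 4 sgScramble libraries, 1 had a library far from the others. Serpina3g in sgScramble replicate 4 had a normalized read count of 799, against 476 in the nearest library, a gap of 0.869 of the group's range and above the 95% critical value of Dixon's test for 4 samples. Chance alone gives such a gap in about 1 of 20 groups. Without this library the log2 fold change of Serpina3g was 1.69, against 1.49 with all libraries. The other group has 3 libraries and was not searched.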

How the results depend on the processing

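Of 426 values of 27 serpin genes under 16 alternative settings, 403 kept their direction and their side of the threshold, 11 were no longer past it, 8 came to pass it and 4 changed sign. Of the 18 of these genes that passed, 16 passed with the same sign in every setting in which they were tested. Serpina3i and Serpinb8 did not. Serpina1a to Serpina1e and Serpina3e-ps were below the filter of 50 and were not tested in that setting. A filter of 50 left fewer low genes to test, and 13 serpins passed, 5 of them as lower. The median log2 fold change of the serpins was 0.15 with that filter, -0.52 with scaling by library size only, which moved the median of all genes to -0.21, and -0.2841 to -0.01889 with 1 library left out. Leaving out 1 library gave 17 to 20 serpins that passed, 8 to 10 higher and 9 to 12 lower, and 4886 to 7739 genes in all, fewest without sgScramble replicate 2. The sign changed for Serpinb9 (-0.1173 by library size only, -0.02979 without sgScramble replicate 3, up to 0.1815 with a library left out) and Serpinf1 (-0.06748 by library size only, -0.06319 without sgKrt19 replicate 5, up to 0.2663), neither of which passed in any setting. With p as the share of assignments whose absolute difference was as large, Serpinb9 minus Gzmb, still at -1.92, had an exact permutation p of 0.0286. No call was made from that value. By library size only, Serpinb6b (-0.52, adjusted p = 0.0118), Serpine2 (-0.59, adjusted p = 0.0337) and Serpinh1 (-0.61, adjusted p = 0.00638) passed. Among the lists, proteases of neutrophils, mast cells and basophils gave 1 to 4 genes and plasminogen activation 3 to 6 with 1 library left out. The causes of these changes were not tested. The Serpina1 genes rest on 3 to 10 reads in sgKrt19. No paired analysis was possible because the groups share no replicate number.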
